A study of Mus musculus with 12 samples.

Results

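The 10 genes described here encode immediate early transcription factors: the AP-1 subunits Fos, Fosb, Fosl1, Fosl2, Jun and Junb, the related factor Atf3, the zinc finger factors Egr1 and Egr2, and the orphan nuclear receptor Nr4a1. They were listed by name as a family, with earlier results of these data known, and were found by gene identifier among the 56884 genes of the count tables. All 10 were in each of the 12 libraries and all 10 passed the filter on low counts, which left 17757 genes. The libraries were mRNA from mouse tumours formed by TS/A cells, a mouse mammary carcinoma line, together with cancer-associated fibroblasts. The 4 treatment labels held 3 libraries each: RT_FAP41BBL (radiotherapy together with muFAP-4-1BBL), RT (radiotherapy), FAP41BBL (muFAP-4-1BBL), and control. The agent muFAP-4-1BBL is an agonist that is directed to fibroblast activation protein and acts on 4-1BB, a costimulatory receptor of T cells. The control libraries carry the treatment label None, while the design text speaks of a vehicle. All 4 groups share the same tumour cells and fibroblasts and a genotype given as WT. The labels used here give no dose, harvest time or mouse strain and do not tie a library to an animal, so a p-value here reflects only how these libraries vary, which may be technical variation.

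Immediate early genes are transcribed within minutes of a stimulus such as a growth factor, a cytokine or cell stress, from factors already present in the cell. MAP kinases activate serum response factor with its ternary complex partners, and the cAMP response element binding protein, at their promoters. Fos proteins bind DNA as dimers, typically with a Jun protein, and these AP-1 dimers act on genes of proliferation, invasion and inflammation. Egr and Nr4a factors bind sites of their own, and the mRNAs of the family are short-lived.

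The promoter sequences were searched because these genes are induced through a few short control elements. RefSeq promoter windows on GRCm38.p6 matched 8 of the 10 genes, all but Egr1 and Fosl1. Only the 250 bases before each start were searched, on both strands, so elements farther away were not seen. A gene was counted if any of its windows matched, and Egr2 had 5 windows while the others had 1 each. The shares of all windows are per window, so they are not the same measure as the counts of genes. The core of the cAMP response element, TGACG, was found in 6 of the 8 (Fos, Fosb, Junb, Nr4a1, Atf3 and Egr2) and in 17.8% of all 32851 windows. The full element TGACGTCA, which contains that core, was found in 0 of the 8 and in 1.55% of all windows. The AP-1 site TGANTCA was found in 0 of the 8 and in 6.75% of all windows. A CArG box, the serum response factor site, was found in 1 of the 8, Egr2, and in 1.47% of all windows. A match is a description of letters and not of binding. The 130 bases before the start are printed 5′ to 3′ on the gene's strand for 5 genes with a TGACG core and for Fosl2, which had no match and is set beside them. Capitals mark TGACG or its complement CGTCA, and in Egr2 also the CArG box. The Egr2 window is 1 of 5, and it was the first with both elements. They lie at chr12:85473760-85473889 (Fos, plus strand), chr7:19310046-19310175 (Fosb, minus), chr15:101266716-101266845 (Nr4a1, plus), chr1:191183334-191183463 (Atf3, minus), chr10:67537739-67537868 (Egr2, plus) and chr5:32136342-32136471 (Fosl2, plus).
Fos: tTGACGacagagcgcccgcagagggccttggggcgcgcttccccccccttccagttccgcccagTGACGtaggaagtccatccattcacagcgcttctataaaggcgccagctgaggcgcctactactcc
Fosb: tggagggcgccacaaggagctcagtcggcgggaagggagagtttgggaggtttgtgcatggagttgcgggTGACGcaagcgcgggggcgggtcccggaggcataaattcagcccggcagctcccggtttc
Nr4a1: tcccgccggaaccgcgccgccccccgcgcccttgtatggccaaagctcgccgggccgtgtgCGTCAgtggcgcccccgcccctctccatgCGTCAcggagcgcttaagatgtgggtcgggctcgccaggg
Atf3: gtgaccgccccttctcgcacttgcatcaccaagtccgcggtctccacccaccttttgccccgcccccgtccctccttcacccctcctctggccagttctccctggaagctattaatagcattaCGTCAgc
Egr2: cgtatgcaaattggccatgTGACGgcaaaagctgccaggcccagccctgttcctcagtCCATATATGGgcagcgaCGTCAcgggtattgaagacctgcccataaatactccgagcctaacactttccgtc
Fosl2: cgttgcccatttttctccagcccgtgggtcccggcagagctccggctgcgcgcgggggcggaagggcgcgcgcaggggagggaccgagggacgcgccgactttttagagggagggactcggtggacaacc
Fosb carried 1 core and Fos a pair, while the stretch of Fosl2 carried none.

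Library totals lay between 34076477 and 42067481 counts. The 10 fibroblast markers had counts in every library, with summed levels of 8028 to 8528 CPM in RT_FAP41BBL, 7546 to 10915 CPM in RT, 5252 to 11686 CPM in FAP41BBL and 6688 to 9124 CPM in control. CPM, the share of a library's counts, is scaled here by TMM factors. The 21 skeletal muscle markers also had counts in every library. Their sum was 852 to 1506 CPM in RT_FAP41BBL, 7982 to 17458 CPM in RT, 272 to 2791 CPM in FAP41BBL and 261 to 1010 CPM in control, so the RT libraries stood apart from all others. Macrophage markers summed to 3588 to 4370 CPM in RT_FAP41BBL, 1797 to 2858 CPM in RT, 2396 to 2718 CPM in FAP41BBL and 2164 to 2604 CPM in control. These are whole-tumour libraries, in which more cells of a type and more RNA per cell cannot be told apart.

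Per unit of gene length, Junb, an AP-1 subunit that dampens Jun activity, was the most abundant of the 10, at 75.0 ± 19.0 FPKM over the 12 libraries (mean ± SD). FPKM here is CPM divided by the summed exon length in kilobases. Jun averaged 33.4 ± 5.18 FPKM and Fosl1 averaged 31.1 ± 9.36 FPKM. Junb was above Jun in every library, since its lowest value was 51.6 FPKM and the highest of Jun was 42.7 FPKM, whereas the ranges of Jun and Fosl1 overlapped. Fos averaged 17.4 ± 5.66 FPKM, with a range that overlapped that of Fosl1. Atf3, Egr1 and Fosl2 averaged 11.9 ± 4.89, 11.7 ± 4.92 and 11.3 ± 1.29 FPKM, with ranges over the 12 libraries that overlapped. Their order differed between groups. In control Fosl2 averaged 10.6 ± 2.01 FPKM, against 6.07 ± 1.70 FPKM for Atf3 and 5.07 ± 0.651 FPKM for Egr1. In RT_FAP41BBL Fosl2 averaged 10.7 ± 0.383 FPKM, against 16.6 ± 3.97 FPKM for Atf3 and 15.4 ± 2.24 FPKM for Egr1 (SD, n = 3 each). Nr4a1 averaged 5.64 ± 1.34 FPKM, and its highest value of 8.07 FPKM was just under the lowest of Fosl2, 8.26 FPKM. Fosb at 2.0 ± 0.975 FPKM and Egr2 at 1.52 ± 0.453 FPKM were the least abundant, with ranges that overlapped each other. Counts ran between 84 for Egr2 in its lowest library and 9885 for Junb in its highest, so Egr2 carries the largest counting error of the family.

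**Figure D1:**
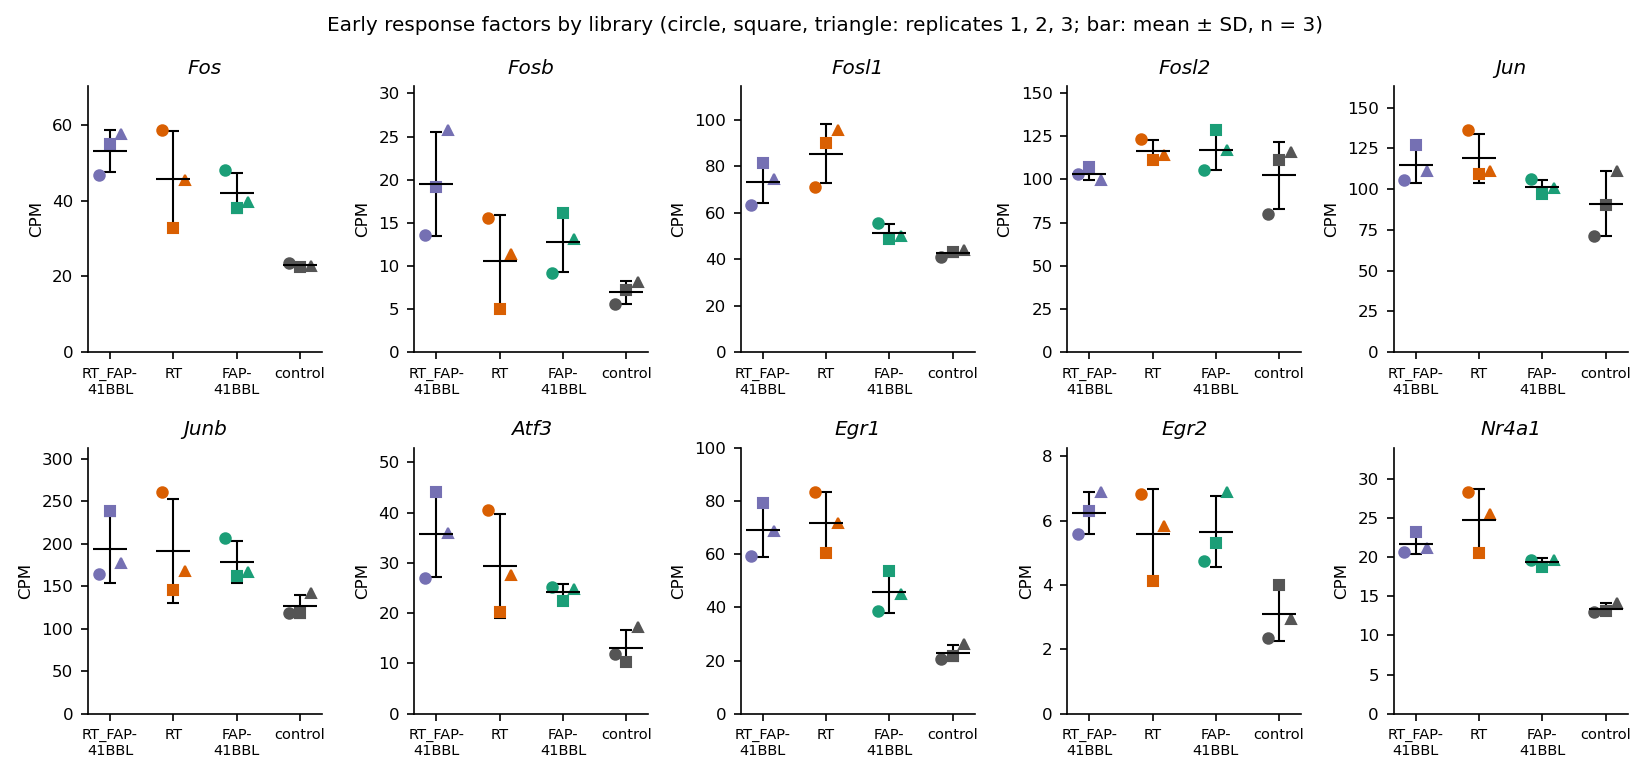
Level of each early response factor in CPM (vertical axis, starting at 0) in the 3 libraries of RT_FAP41BBL, RT, FAP41BBL and control; points are libraries and bars the mean ± SD. For Egr1 every treated library lies above the 3 control libraries, which sit between 20.6 and 26.1 CPM, while for Fosl2 control overlaps all 3 treated groups.

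Most of the family was higher in irradiated tumours than in control, with or without the agonist. In RT_FAP41BBL against control 7 of the 10 genes rose and 0 fell in edgeR (quasi-likelihood test, Benjamini-Hochberg adjusted p under 0.05), while 5.59% of all tested genes were called higher. In RT against control 6 of the 10 rose and 0 fell by the same test, while 6.57% of all genes were called higher. Fos, Fosl1, Egr1, Egr2, Nr4a1 and Atf3 passed in both comparisons, and Fosb passed in RT_FAP41BBL alone. The difference between those comparisons for Fosb was itself tested as RT_FAP41BBL against RT and gave an adjusted p of 0.186 in edgeR. At an unadjusted p under 0.05, with none lower, 9 of the 10 were higher in RT_FAP41BBL (23.6% of all genes in either direction) and 8 in RT (24.2%). DESeq2 called 8 in RT_FAP41BBL (13.9% of all genes) and 7 in RT (14.1%), and limma-voom called 7 in RT_FAP41BBL (7.88%) and 5 in RT (10.1%). In FAP41BBL against control edgeR called 0 of the 10, and 0.00563% of all genes in either direction. At an unadjusted p under 0.05, 8 of the 10 were higher in FAP41BBL, where 5.17% of all genes passed in either direction; DESeq2 called 3 (Fos, Egr1 and Nr4a1; 0.282% of all genes) and limma-voom 0 (0.00563%). The 3 comparisons share the control libraries. The median log2 fold change of the 10 was 0.89 in RT_FAP41BBL, 0.87 in RT and 0.69 in FAP41BBL, against medians over all genes of 0.01, 0.00 and 0.01.

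**Figure D2:**
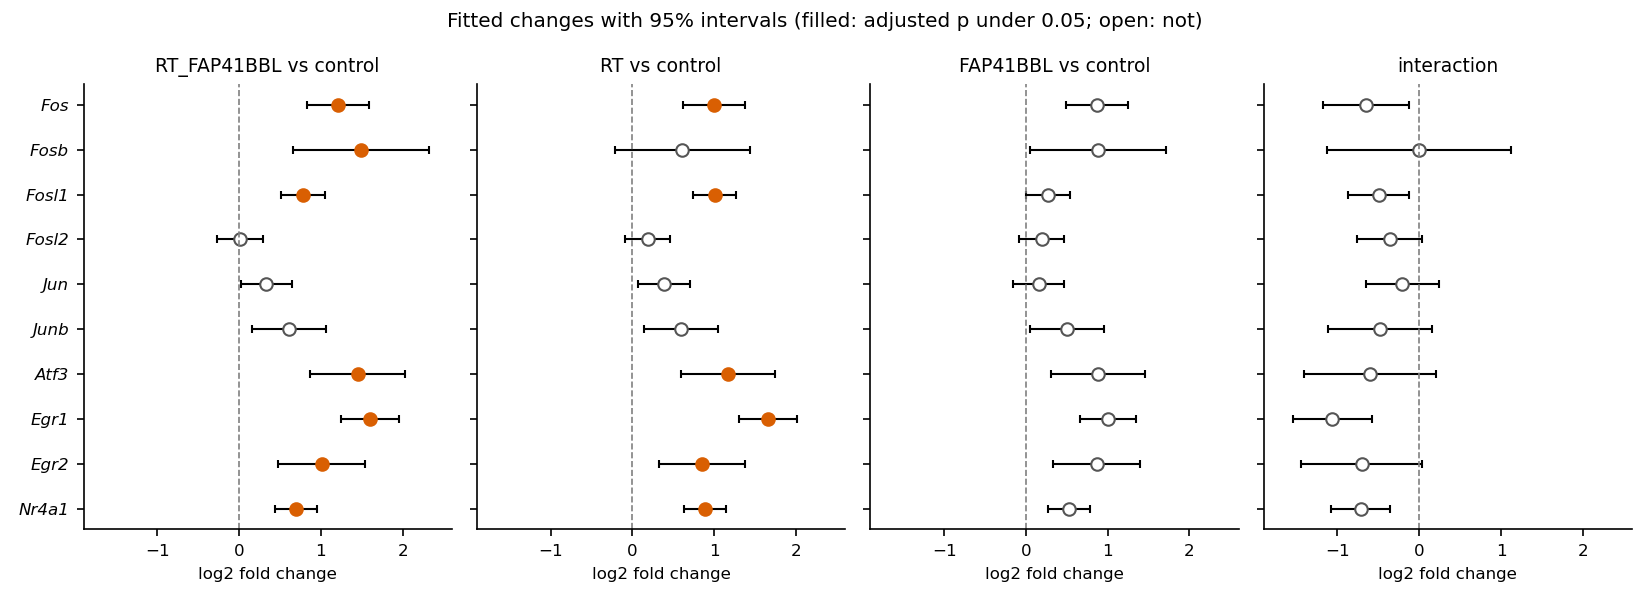
Fitted log2 fold change with its 95% interval (horizontal axis) for each of the 10 genes in RT_FAP41BBL, RT and FAP41BBL against control, and the interaction of the treatments; filled points have an adjusted p under 0.05 in edgeR. The filled points are 7 in RT_FAP41BBL and 6 in RT, and the open points of FAP41BBL lie between 0.15 and 1.00.

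Egr1, a zinc finger factor induced by MAP kinase signalling, had the largest fitted rise of the 10 in both irradiated groups. It lies at chr18:34992876-34998037 (plus strand, GRCm39, as are the gene positions below). Its level was 59.3, 79.3 and 68.6 CPM in RT_FAP41BBL, 83.5, 60.5 and 71.6 CPM in RT, 38.5, 53.6 and 44.9 CPM in FAP41BBL, and 20.6, 21.6 and 26.1 CPM in control. Every treated library exceeded every control library, and every irradiated library exceeded every FAP41BBL library. The log2 fold change was 1.6 ± 0.16 (SE, 3.04-fold, adjusted p = 0.001) in RT_FAP41BBL and 1.66 ± 0.16 (3.16-fold, adjusted p = 0.000313) in RT by edgeR. In FAP41BBL it was 1.00 ± 0.16, and the edgeR adjusted p of 0.0869 missed the threshold with a 95% interval of 0.66 to 1.35. The p passed under DESeq2, at 1.76e-05, and with no low-count filter, at 0.00599, where DESeq2 called 0.282% and the unfiltered fit 0.0271% of all genes.

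Egr2, a related zinc finger factor known from myelination and from T cell anergy, lies at chr10:67371305-67378018 (plus). It stood at 5.58, 6.29 and 6.88 CPM in RT_FAP41BBL, 6.84, 4.12 and 5.83 CPM in RT, 4.75, 5.32 and 6.90 CPM in FAP41BBL, and 2.36, 4.01 and 2.94 CPM in control. No treated library was as low as a control library, although RT replicate 2 and control replicate 2 nearly met. Egr2 rose in RT_FAP41BBL by a log2 fold change of 1.01 ± 0.24 (edgeR adjusted p = 0.0258) and in RT by 0.85 ± 0.24 (adjusted p = 0.0466). Its FAP41BBL value was 0.86 ± 0.24 with an edgeR adjusted p of 0.684. The call in RT was lost without any 1 of 9 libraries (FAP41BBL 1 or 2, control 1 or 3, RT_FAP41BBL 1, 2 or 3, RT 1 or 3), with edgeR adjusted p between 0.0541 and 0.149. The call in RT_FAP41BBL was lost without control 1 (0.0936), control 3 (0.0850), RT_FAP41BBL 2 (0.0860) or RT_FAP41BBL 3 (0.102).

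Among the AP-1 subunits, Fos, the prototype partner of Jun, lies at chr12:85520664-85524047 (plus). Its level was 46.9, 55.1 and 57.6 CPM in RT_FAP41BBL, 58.6, 32.9 and 45.5 CPM in RT, 48.2, 38.2 and 39.8 CPM in FAP41BBL, and 23.6, 22.5 and 22.7 CPM in control. The control libraries were nearly level and all 9 treated libraries lay above them, while the treated groups overlapped one another. Fos rose in RT_FAP41BBL by a log2 fold change of 1.21 ± 0.17 (2.32-fold, edgeR adjusted p = 0.0027) and in RT by 0.99 ± 0.17 (1.99-fold, adjusted p = 0.00499). In FAP41BBL the value was 0.87 ± 0.17 with an edgeR adjusted p of 0.339 (95% interval 0.50 to 1.25).

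Fosb, which is spliced into a full and a short form that gene counts do not separate, lies at chr7:19036621-19043976 (minus). It had 13.6, 19.1 and 25.7 CPM in RT_FAP41BBL, 15.5, 4.97 and 11.3 CPM in RT, 9.21, 16.1 and 13.1 CPM in FAP41BBL, and 5.53, 7.20 and 8.10 CPM in control. RT_FAP41BBL and FAP41BBL did not overlap control, and RT did through its second library. Fosb rose in RT_FAP41BBL by a log2 fold change of 1.49 ± 0.38 (2.81-fold, edgeR adjusted p = 0.0368), and its values in RT (0.61 ± 0.38) and FAP41BBL (0.88 ± 0.38) had adjusted p of 0.359 and 0.94. The call in RT_FAP41BBL was lost without control 1 (0.127), control 2 (0.122), control 3 (0.0794), RT_FAP41BBL 2 (0.103), RT_FAP41BBL 3 (0.137) or RT 3 (0.051), all edgeR adjusted p. With no low-count filter its adjusted p was 0.116.

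Fosl1 and Fosl2 encode Fra-1 and Fra-2, Fos relatives without the strong activation domain of Fos, and Fra-1 is known for its part in invasive breast carcinoma. Fosl1 lies at chr19:5497575-5505974 (plus) and Fosl2 at chr5:32293145-32315186 (plus). Fosl1 stood at 63.5, 81.5 and 74.3 CPM in RT_FAP41BBL, 71.1, 89.8 and 95.4 CPM in RT, 55.6, 48.8 and 50.0 CPM in FAP41BBL, and 40.9, 43.1 and 43.8 CPM in control. All irradiated libraries were above all FAP41BBL libraries, which were above control. Fosl1 rose in RT_FAP41BBL by 0.78 ± 0.12 (log2 fold change, 1.72-fold, edgeR adjusted p = 0.00409) and in RT by 1.00 ± 0.12 (2.01-fold, adjusted p = 0.00102), whereas in FAP41BBL it was 0.27 ± 0.12 (adjusted p = 0.954). Fosl2 was at 103, 107 and 99.9 CPM in RT_FAP41BBL, 124, 111 and 114 CPM in RT, 105, 128 and 117 CPM in FAP41BBL, and 80.0, 111 and 116 CPM in control. Its treated groups all overlapped control. The log2 fold change of Fosl2 was 0.01 in RT_FAP41BBL (95% interval -0.26 to 0.29, edgeR adjusted p = 0.962), 0.18 in RT (-0.09 to 0.46, adjusted p = 0.42) and 0.19 in FAP41BBL (-0.09 to 0.47, adjusted p = 0.999).

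Neither Jun nor Junb passed edgeR's test in any comparison with all 12 libraries. Jun, the central AP-1 subunit, lies at chr4:94937271-94940459 (minus). It had 106, 127 and 111 CPM in RT_FAP41BBL, 136, 109.5 and 111 CPM in RT, 106, 96.8 and 101 CPM in FAP41BBL, and 71.5, 90.2 and 111 CPM in control. Control replicate 3 reached into every treated group. The log2 fold change of Jun was 0.34 ± 0.15 in RT_FAP41BBL (edgeR adjusted p = 0.186, 95% interval 0.02 to 0.65) and 0.39 ± 0.15 in RT (adjusted p = 0.122, interval 0.07 to 0.70). Without control replicate 3 the RT value was 0.56 and passed, with an edgeR adjusted p of 0.0402. In FAP41BBL it was 0.15 ± 0.15 (edgeR adjusted p = 0.999).

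Junb lies at chr8:85701113-85705347 (minus). Its level was 165, 238 and 177 CPM in RT_FAP41BBL, 261, 145 and 168 CPM in RT, 207, 163 and 166 CPM in FAP41BBL, and 119, 119 and 142 CPM in control. No treated library overlapped control, but RT replicate 2 was close to control replicate 3. Junb gave log2 fold changes of 0.61 ± 0.21 in RT_FAP41BBL (edgeR adjusted p = 0.0941), 0.60 ± 0.21 in RT (adjusted p = 0.0957) and 0.50 ± 0.21 in FAP41BBL (adjusted p = 0.939). It passed under DESeq2, with an adjusted p of 0.0351 in RT_FAP41BBL and 0.0417 in RT, and in edgeR for RT_FAP41BBL without RT replicate 1 (0.0297).

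Nr4a1, the orphan nuclear receptor Nur77 that is induced by antigen receptor signalling among other stimuli, lies at chr15:101152150-101172676 (plus). Its level was 20.7, 23.2 and 21.2 CPM in RT_FAP41BBL, 28.3, 20.5 and 25.5 CPM in RT, 19.6, 18.7 and 19.6 CPM in FAP41BBL, and 13.0, 13.1 and 14.2 CPM in control. The 3 treated groups lay clear of control. Nr4a1 rose in RT_FAP41BBL by a log2 fold change of 0.69 ± 0.12 (1.62-fold, edgeR adjusted p = 0.00583) and in RT by 0.88 ± 0.12 (1.85-fold, adjusted p = 0.0015). In FAP41BBL it was 0.53 ± 0.12 (edgeR adjusted p = 0.495, 95% interval 0.27 to 0.78).

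Atf3, a stress-induced factor of the ATF family that can pair with Jun proteins, lies at chr1:190902493-190950236 (minus). It stood at 27.0, 44.1 and 36.0 CPM in RT_FAP41BBL, 40.6, 20.2 and 27.6 CPM in RT, 25.3, 22.3 and 24.9 CPM in FAP41BBL, and 11.8, 10.3 and 17.2 CPM in control. All treated libraries were above all control libraries, and RT_FAP41BBL was above FAP41BBL. Atf3 rose in RT_FAP41BBL by a log2 fold change of 1.45 ± 0.27 (2.73-fold, edgeR adjusted p = 0.00917) and in RT by 1.17 ± 0.26 (2.25-fold, adjusted p = 0.0182), and its FAP41BBL value was 0.89 ± 0.26 (adjusted p = 0.732). The RT call was lost without control 1 (adjusted p = 0.0712) or control 2 (0.0848), and the RT_FAP41BBL call without control 2 (0.058), in edgeR. With no low-count filter its RT adjusted p was 0.0561.

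Counting only whether groups overlapped in CPM, 8 of the 10 genes were higher with no overlap in RT_FAP41BBL, 7 in RT and 8 in FAP41BBL. The shares of all genes with such a pattern were 20%, 14.9% and 5.7%. Fos, Fosl1, Egr1 and Nr4a1 passed edgeR's test in both irradiated groups whichever of the 12 libraries was left out. The number of genes called lay between 5 and 8 in RT_FAP41BBL and between 4 and 6 in RT over those fits. The share of all genes called in either direction lay between 1.93% and 10.7% in RT_FAP41BBL and between 4.43% and 10.9% in RT over the same fits.

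The RT group also differed from control in its skeletal muscle markers, as given above: the mean log2 CPM of those markers was 7.89 to 9.02 in RT, against 1.53 to 4.74 in control. With that score as a covariate, 1 of the 10 genes was called in RT against control, Egr1 (log2 fold change 1.97, edgeR adjusted p = 0.046), as were 0.0169% of all genes. The fitted values of the others that had passed were 0.97 for Fos (adjusted p = 0.271), 0.98 for Fosl1 (0.147), 0.89 for Nr4a1 (0.154), 1.49 for Atf3 (0.259) and 0.53 for Egr2 (0.695), all by edgeR. The scores of RT and control do not overlap, so treatment and muscle RNA cannot be told apart. In RT_FAP41BBL, where the score was 4.50 to 5.37, 5 of the 10 genes were called with the covariate, as were 4.76% of all genes. Fosb (1.61, adjusted p = 0.0505) and Egr2 (0.92, adjusted p = 0.0689) no longer passed there in edgeR. In RT_FAP41BBL 7 of 10 macrophage markers, 3 of 10 T cell markers and 3 of the 7 tested neutrophil markers were called higher than in control, as were 2 of 10 adipocyte and 1 of 10 endothelial markers, against 5.59% of all genes. T cell markers summed to 92.6 to 127 CPM in RT_FAP41BBL, against 51.4 to 87.6 CPM in control, and neutrophil markers to 75.6 to 96.1 CPM, against 30.5 to 34.2 CPM. Adipocyte markers had the largest median log2 fold change of these immune, fat and vessel lists, 2.84 in RT_FAP41BBL, 1.65 in RT and 2.57 in FAP41BBL. They summed to 131 to 427 CPM in RT_FAP41BBL, 107 to 320 CPM in RT, 207 to 360 CPM in FAP41BBL and 47.5 to 128 CPM in control. Endothelial markers summed to 373 to 429 CPM in RT_FAP41BBL, against 262 to 304 CPM in control. Their part in the result was not tested.

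The study's question was how radiotherapy and the agonist act together. In RT_FAP41BBL against RT, edgeR called 0 of the 10 genes, while 5.76% of all genes were called in either direction. At an unadjusted p under 0.05 there was 1 gene (23% of all genes), Fosb, with a log2 fold change of 0.88 ± 0.37. DESeq2 called 0 of the 10 (11.6% of all genes) and limma-voom 0 (7.69%). The intervals are narrow for some genes and wide for others: Egr1 was -0.06 (95% interval -0.40 to 0.28), Nr4a1 was -0.19 (-0.45 to 0.06), and Atf3 was 0.28 (-0.28 to 0.84). Only Fosl2 had groups that did not overlap, with RT_FAP41BBL lower, as in 13.4% of all genes. Its log2 fold change was -0.17 (edgeR adjusted p = 0.472). The mean log2 CPM of the muscle markers was 7.89 to 9.02 in RT and 4.50 to 5.37 in RT_FAP41BBL. Treatment and muscle RNA therefore cannot be told apart in this comparison either. With that score as a covariate edgeR called 0 of the 10 and 0.0169% of all genes. Immune and fat markers differed between these groups too. EdgeR called 4 of 10 T cell, 5 of 10 macrophage, 2 of 10 adipocyte and 1 of 7 tested neutrophil markers higher in RT_FAP41BBL. T cell markers summed to 32.3 to 62.6 CPM in RT, against 92.6 to 127 CPM in RT_FAP41BBL. The part of these cells in the result was not tested.

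In RT_FAP41BBL against FAP41BBL, edgeR again called 0 of the 10, against 0.946% of all genes. At an unadjusted p under 0.05 (13.5% of all genes), Fosl1 (log2 fold change 0.51 ± 0.12, adjusted p = 0.0716) and Egr1 (0.60 ± 0.16, adjusted p = 0.0959) were higher in RT_FAP41BBL. DESeq2 called those 2 genes (5.76% of all genes) and limma-voom 0 (1.33%), and edgeR called Fosl1 without RT replicate 1 (adjusted p = 0.0494). Fosl1, Egr1, Nr4a1 and Atf3 had no overlap between the groups and were higher in RT_FAP41BBL, a pattern of 12.3% of all genes.

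The interaction subtracts the log2 change of RT over control from that of RT_FAP41BBL over FAP41BBL, so a value below 0 means that the combined treatment gave less than the sum of the single log2 changes. Values were below 0 for 9 genes, between -0.21 and -1.06, and near 0 for Fosb (-0.00), whose sign turned with the scaling (0.01 with library totals in place of TMM). EdgeR called 0 of the 10, against 0.152% of all genes. At an unadjusted p under 0.05 there were 4, where 14.1% of all genes passed: Fos (-0.65 ± 0.24, adjusted p = 0.25), Fosl1 (-0.50 ± 0.17, 0.221), Egr1 (-1.06 ± 0.22, 0.0778) and Nr4a1 (-0.72 ± 0.17, 0.0964). DESeq2 called Egr1 (adjusted p = 0.00179) and Nr4a1 (0.00766), with 3.91% of all genes, and limma-voom called 0 (0.158%). With no low-count filter edgeR called Egr1 (0.0229), with 0.308% of all genes. The median of the 10 was -0.55, against 0.00 over all genes. The interaction includes the RT libraries with the high muscle markers, and those 21 markers had a median of -4.41. Treatment and muscle RNA therefore cannot be told apart here. With the muscle score as a covariate edgeR called 0 of the 10 and 0% of all genes.

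The libraries of a group also differed among themselves. Each library's deviation from its group mean in log2 CPM was correlated between genes over the 12 libraries, for 45 gene pairs with exact permutation of libraries within groups (1296 arrangements, two-sided). Of the 45 correlations 36 were above 0, with a median Pearson's r of 0.515, and other gene pairs were not compared. After Benjamini-Hochberg adjustment over the 45 pairs, 3 passed: Nr4a1 with Atf3 (r = 0.889, Spearman's rho = 0.93), Junb with Atf3 (r = 0.887, rho = 0.797) and Jun with Junb (r = 0.732, rho = 0.804). Their exact permutation p for r were 0.00231, 0.00154 and 0.000772, the last being the smallest that 1296 arrangements can give, and each adjusted p was 0.0347. For rho the adjusted exact permutation p was 0.0521, 0.0694 and 0.0347. Without the 2 libraries farthest from the median in 1 gene of the pair (Nr4a1, Junb and Jun) the r values were 0.857, 0.799 and 0.967. Fos also had high r with Nr4a1 (0.849), Junb (0.814) and Atf3 (0.749), but none passed (adjusted exact permutation p 0.167, 0.167 and 0.136). Without the 2 libraries farthest in Fos those r were 0.365, 0.555 and 0.431. Dropping the extremes of 1 gene also narrows its range, so no conclusion is drawn from that fall. For Fosl1, 1 of its 9 Pearson correlations was above 0, and they ran between -0.233 and 0.0567, with none passing. By Spearman's rho Fosl1 was above 0 with Nr4a1 (0.266), Jun (0.161), Fos (0.14) and Atf3 (0.112). The other rho values of Fosl1 were 0 or below, down to -0.245 with Fosl2, and none passed. The r of Fosl1 with Fos was -0.171 over all 12 libraries and 0.733 without the 2 farthest in Fos, so that value depended on few libraries. Without the 2 farthest in Fosl1, its r turned from -0.164 to 0.239 with Nr4a1 and from -0.11 to 0.359 with Junb. It stayed below 0 with Egr1 (-0.0948) and Egr2 (-0.0585).

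**Figure D3:**
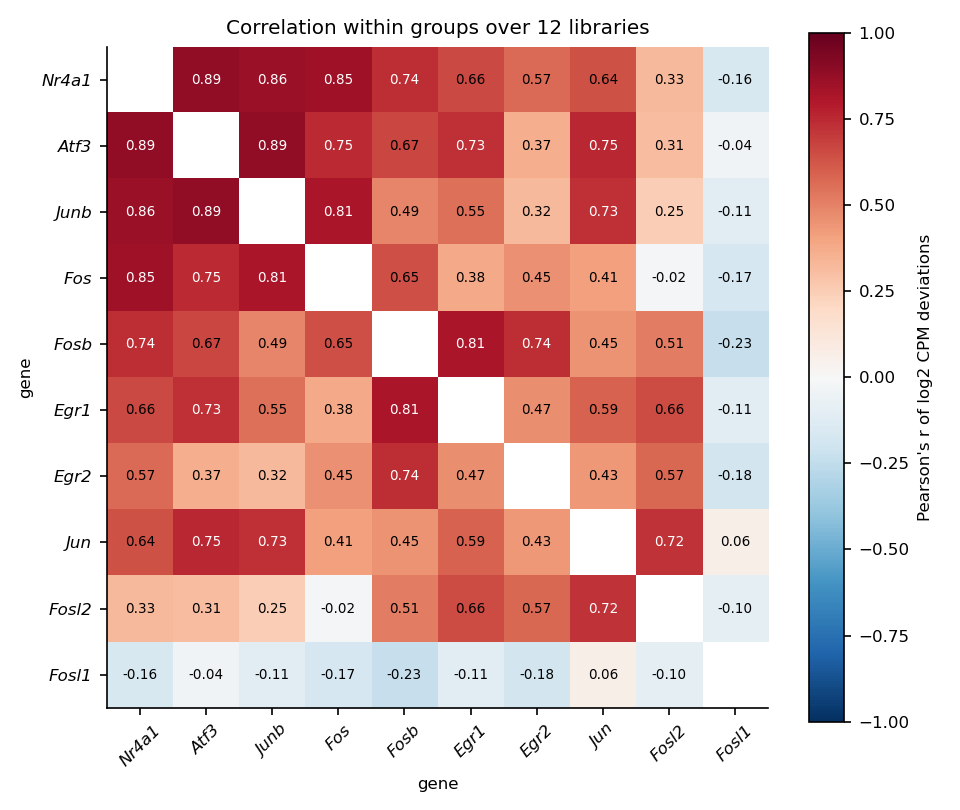
Pearson's r between pairs of the 10 genes (both axes), over the deviations of 12 libraries from their group means in log2 CPM; red is positive and blue negative. Nr4a1 with Atf3 (0.889) and Junb with Atf3 (0.887) are the darkest red, and the Fosl1 row is near or below 0.

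Over all 12 libraries, group differences included, the genes outside the family with the most similar profiles were listed for each gene, with n = 12 libraries and no test. Egr1 was most like Hbegf, a ligand of the EGF receptor (r = 0.972, rho = 0.972), then Serpinb9b and the monocyte chemokine gene Ccl2. Ccl2 also headed the list of Nr4a1 (r = 0.961, rho = 0.937), ahead of Blcap and Stk40. Fos was most like Zfp36, which encodes the mRNA decay factor tristetraprolin (r = 0.975, rho = 0.937), then Tmem189 and Bcl3. Zfp36 was again second for Atf3, behind the chemokine receptor-like gene Ccrl2 (r = 0.964, rho = 0.972) and ahead of Cxcl10, an interferon-induced chemokine gene. Junb was most like Ier2, another immediate early gene (r = 0.951, rho = 0.951), then S1pr2 and Pea15a. Jun was most like Srf, the gene of serum response factor (r = 0.923, rho = 0.818), then Mafk and Arl8a. Fosb was nearest to the lysosomal protease gene Tpp1 (r = 0.959, rho = 0.944), with Mylip and Slc7a7. Fosl1 was nearest to the ribosome biogenesis gene Rrp12 (r = 0.955, rho = 0.93), with Sesn2 and Ehbp1l1. Fosl2 was nearest to Lhfpl2 (r = 0.936, rho = 0.888), the activin antagonist gene Fst and the hyaluronan synthase gene Has2. Egr2 was nearest to the zinc exporter gene Slc30a1 (r = 0.927, rho = 0.818), with AI427809 and Blcap.

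Further members of the same families rose in part. Of 19 other Egr, Nr4a, AP-1, ATF and small Maf genes 18 were tested. In RT_FAP41BBL 4 rose and 0 fell by edgeR, where 5.59% of all genes were called higher. They were Batf, a lymphocyte AP-1 factor (log2 fold change 1.19 ± 0.21, adjusted p = 0.00628), Mafk (0.58, 0.0341), Batf2 (1.14, 0.0357) and Atf5 (0.39, 0.048). In RT 4 rose and 0 fell, where 6.57% of all genes were called higher: Atf5 (0.76, adjusted p = 0.00201), Atf4 (0.52, 0.0131), which drives the amino acid stress response, Nr4a3 (1.06, 0.0241) and Mafk (0.59, 0.0279). The median log2 fold change of the 18 was 0.11 in RT_FAP41BBL and 0.08 in RT, against 0.01 and 0.00 over all genes. The RT values of this and the following lists come from the libraries with the high muscle markers given above, whose part in them was not tested. Batf differed between RT_FAP41BBL and RT (0.95 ± 0.21, edgeR adjusted p = 0.0232), with means of 7.69 ± 1.15 and 3.99 ± 0.931 CPM (SD, n = 3 each), and so did Batf3, a factor of cross-presenting dendritic cells (1.27 ± 0.29, adjusted p = 0.0268).

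The upstream regulators passed the test at about the rate of all genes. Of 18 genes of serum response factor, its partners and the MAP kinase cascade, 1 rose in RT_FAP41BBL, where 5.59% of all genes were called higher, and 1 rose in RT, where 6.57% were. The gene that rose in RT_FAP41BBL was the kinase gene Rps6ka1 (log2 fold change 0.50, edgeR adjusted p = 0.0154). In RT, Srf rose (0.57, adjusted p = 0.0486) and Rps6ka5, the gene of the kinase MSK1, fell (-0.60, adjusted p = 0.00904) by edgeR. The median log2 fold changes were 0.02 in RT_FAP41BBL and 0.00 in RT.

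Negative regulators held genes called in both directions. Of 18 genes of MAP kinase phosphatases, Sprouty and Spred proteins and Nab corepressors, 1 rose and 2 fell in RT_FAP41BBL, and 3 rose and 1 fell in RT, by edgeR. In either direction 7.91% of all genes were called in RT_FAP41BBL and 9.62% in RT. Dusp5, a nuclear ERK phosphatase, averaged 32.5 ± 2.51 CPM in RT_FAP41BBL, 42.4 ± 3.54 CPM in RT and 17.7 ± 3.61 CPM in control (SD, n = 3 each). It rose in RT_FAP41BBL by 0.88 ± 0.15 (log2 fold change, edgeR adjusted p = 0.00515) and in RT by 1.26 ± 0.15 (adjusted p = 0.000797). Dusp4 (0.71, adjusted p = 0.0118) and Dusp8 (0.51, 0.0399) rose in RT, and the Sprouty gene Spry1 fell there (-0.67, 0.0322) by edgeR.

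Dusp1, the MAP kinase phosphatase that is itself an immediate early gene, was lower in treated tumours. It had 34.1, 36.7 and 33.8 CPM in RT_FAP41BBL, 47.2, 28.2 and 37.9 CPM in RT, 34.8, 29.1 and 29.8 CPM in FAP41BBL, and 59.2, 50.2 and 53.3 CPM in control. Every treated library was below every control library. Dusp1 fell in RT_FAP41BBL (-0.64 ± 0.15, edgeR adjusted p = 0.0258), and its values in RT (-0.52 ± 0.15, adjusted p = 0.051) and FAP41BBL (-0.80 ± 0.15, adjusted p = 0.327) did not pass. Dusp7 also fell in RT_FAP41BBL (-0.36, adjusted p = 0.037).

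Immediate early genes of other kinds rose in part. Of 26 such genes 13 rose and 1 fell in RT_FAP41BBL, and 11 rose and 0 fell in RT, by edgeR, while 5.59% and 6.57% of all genes were called higher. The median log2 fold changes were 0.45 in RT_FAP41BBL and 0.43 in RT. In FAP41BBL the median was 0.21 and 0 of the 26 were called, as against 0.00563% of all genes. There 14 of the 26 were higher than control with no overlap in CPM and 2 were lower, while 5.7% of all genes were higher in this way. Ptgs2, the gene of the inducible cyclooxygenase COX-2, averaged 120 ± 13.2 CPM in RT_FAP41BBL, 158 ± 3.1 CPM in RT, 95.7 ± 23.9 CPM in FAP41BBL and 45.3 ± 6.38 CPM in control (SD, n = 3 each). Its log2 fold change was 1.40 ± 0.16 in RT_FAP41BBL (edgeR adjusted p = 0.00194), 1.80 ± 0.16 in RT (0.000195) and 1.08 ± 0.16 in FAP41BBL (0.067). Ptgs2 and the kinase gene Plk2 were the 2 of the 26 called in the interaction, at -1.48 ± 0.23 and -0.70 ± 0.11 (edgeR adjusted p = 0.0311 each). Zfp36 rose in RT_FAP41BBL (0.96, adjusted p = 0.00289) and in RT (0.80, 0.00497), and Btg2, an antiproliferative gene, rose in RT_FAP41BBL (0.95, 0.0028) and in RT (0.60, 0.0177). Nfkbiz, an inducible regulator of NF-kB, rose in RT_FAP41BBL against control (1.16, edgeR adjusted p = 0.00288) and against RT (0.76, 0.0247). The matricellular gene Ccn1 rose in RT_FAP41BBL (0.87, adjusted p = 0.00724) and in RT (0.89, 0.00497), and the 1 gene that fell in RT_FAP41BBL was the growth arrest gene Gadd45a (-0.96, 0.0371), named after its value was seen.

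**Figure D4:**
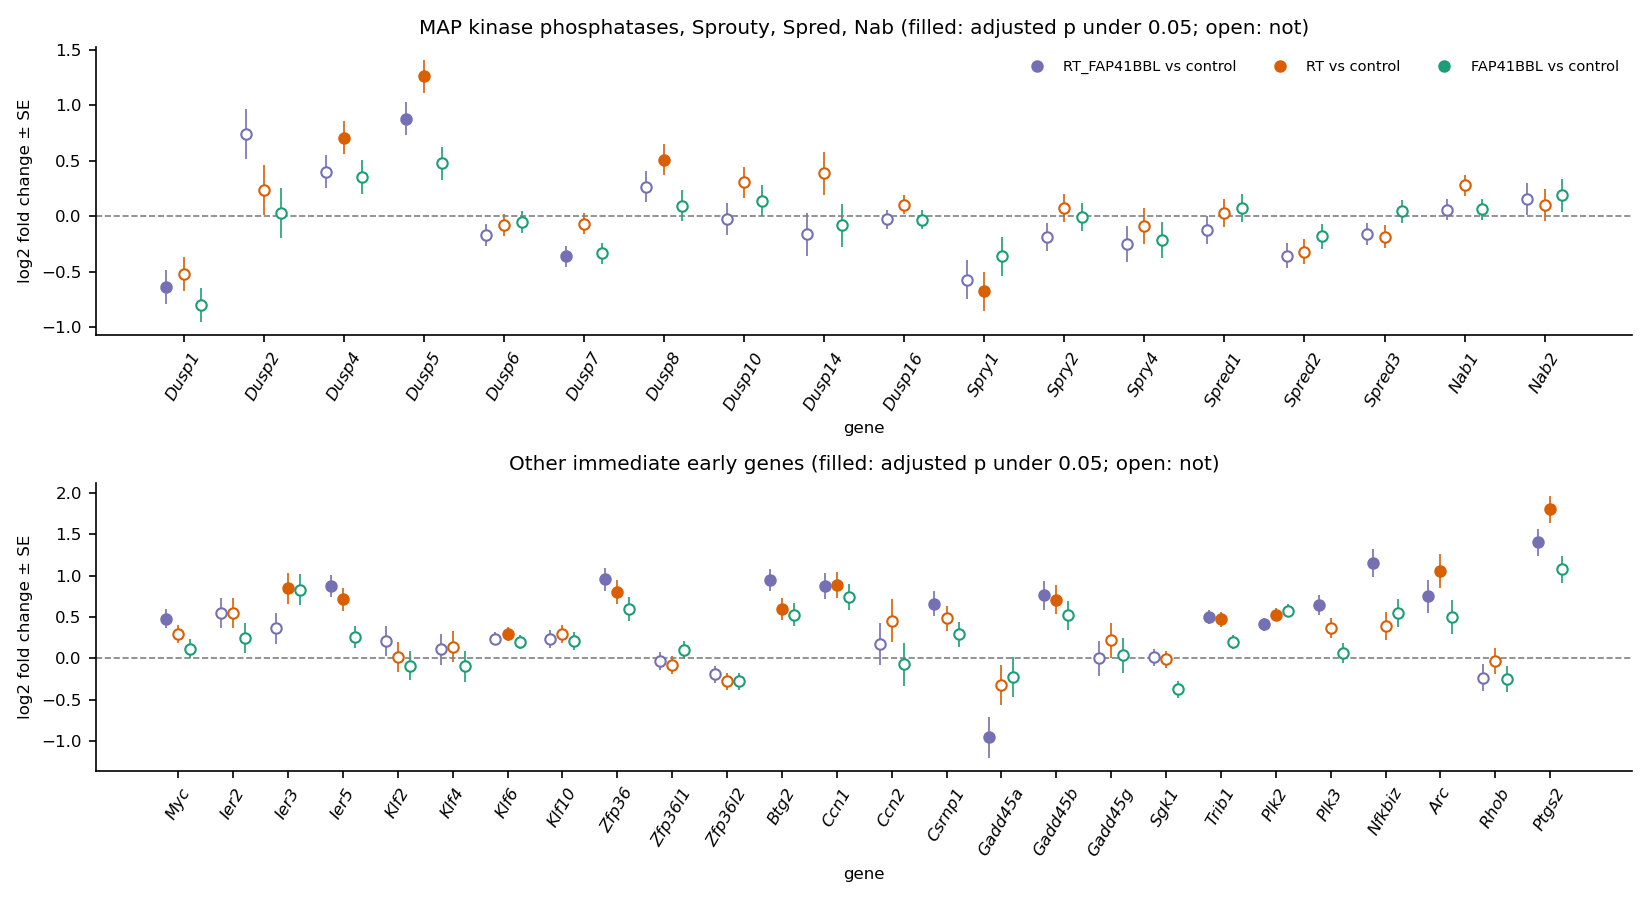
Fitted log2 fold change ± SE (vertical axis) of the negative regulators (upper panel) and the other immediate early genes (lower panel) in RT_FAP41BBL, RT and FAP41BBL against control; filled points have an adjusted p under 0.05 in edgeR. Dusp5 and Ptgs2 are filled above 0 in both irradiated groups, and Dusp1 lies below 0 in all 3 comparisons but is filled in RT_FAP41BBL alone.

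Genes known for AP-1 dependent induction were higher in part. Of 22, 6 rose and 0 fell in RT_FAP41BBL, and 10 rose and 0 fell in RT, by edgeR, while 5.59% and 6.57% of all genes were called higher. The median log2 fold changes were 0.32 in RT_FAP41BBL and 0.64 in RT, with 15 and 19 of the 22 above 0. In RT 15 of the 22 were higher than control with no overlap in CPM, against 14.9% of all genes, and 2 were lower. Those 2 were Mmp13 (-1.04, edgeR adjusted p = 0.172) and Mmp12 (-0.61, 0.262), named after their values were seen. In FAP41BBL the median was 0.38, with 19 of the 22 above 0 and 0 called, where 0.00563% of all genes were called. Ccl2 averaged 75.2 ± 15.8 CPM in RT_FAP41BBL, 90.6 ± 19.2 CPM in RT and 28.4 ± 3.88 CPM in control (SD, n = 3 each), a log2 fold change of 1.40 ± 0.18 in RT_FAP41BBL (edgeR adjusted p = 0.00232) and 1.67 ± 0.18 in RT (0.000586). The urokinase gene Plau rose in RT_FAP41BBL (0.62, adjusted p = 0.0083) and in RT (0.85, 0.0015), and its receptor gene Plaur rose in RT_FAP41BBL (0.48, 0.0335) and in RT (0.76, 0.00363). Hbegf rose in RT_FAP41BBL (0.73, adjusted p = 0.00263) and in RT (0.77, 0.0015), and Areg, another EGF receptor ligand gene, rose in RT_FAP41BBL (1.23, 0.0226) and in RT (1.61, 0.0054). Spp1, the osteopontin gene, fell in RT_FAP41BBL against RT (-1.06 ± 0.19, edgeR adjusted p = 0.0112), with means of 95.3 ± 2.15 and 198 ± 57.9 CPM (SD, n = 3 each). It was the 1 of the 22 called in that comparison, where 5.76% of all genes were called in either direction. There 2 of the 22 were above 0, with a median of -0.28. With no overlap in CPM 7 were lower, as were 13.4% of all genes.

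Heat shock genes encode chaperones that are induced by protein stress. Hsph1 was the 1 of 10 that rose in RT, where 6.57% of all genes were called higher. It had 200 ± 31.2 CPM in RT and 93.4 ± 12.3 CPM in control (log2 fold change 1.10 ± 0.16, edgeR adjusted p = 0.00223). All 10 heat shock genes were above 0 in RT, with a median log2 fold change of 0.49. With no overlap in CPM 6 of them were higher, against 14.9% of all genes. In the interaction Hsph1 was the 1 of 10 called (-1.70 ± 0.23, edgeR adjusted p = 0.0307), against 0.152% of all genes. The summed level of the 10 genes was 2968 to 3196 CPM in RT_FAP41BBL, 3999 to 5114 CPM in RT, 3283 to 4260 CPM in FAP41BBL and 2877 to 3709 CPM in control. In RT_FAP41BBL against RT, Hsph1 (-1.25, adjusted p = 0.00377), Bag3 (-0.40, 0.0218) and Hsp90aa1 (-0.57, 0.0483) fell by edgeR. In that comparison 5.76% of all genes were called in either direction, and none of the 10 early response factors was.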

How the data were processed

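Libraries were made from tumour mRNA with a stranded TruSeq kit and read from both ends on an Illumina NovaSeq, according to the labels. The authors deposited raw counts for each gene and library, which featureCounts 1.6.0 made on GRCm39 and GENCODE M33, per the file headers. The submitters' processing notes also name STAR 2.7.9a, FastQC 0.11.8, limma and edgeR. Groups and replicate numbers came from the labels, and symbols from GENCODE M21 by gene identifier.

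Counts were tested in R 4.3.3 with edgeR 4.0.16: filterByExpr, TMM, 1 robust quasi-likelihood fit of all 12 libraries with 8 residual degrees of freedom, and 6 contrasts, with Benjamini-Hochberg adjustment over 17757 genes. Intervals are 95%. The biological coefficient of variation was 0.205. CPM and FPKM were computed from the deposited counts with TMM scaling, and log2 CPM used a prior count of 2. The steps were run on simulated counts with known changes in RT against control and no other group difference, so a difference in muscle RNA was not simulated. Alternatives were RLE factors or library totals, DESeq2 1.42.0, limma-voom (limma 3.58.1), a fit of every gene with a count, a block for the replicate number, a fit of the 2 compared groups alone, each library left out, and the skeletal muscle score as a covariate. The text names all 10 genes, up to 4 genes with the smallest p of each related list in each comparison described, and the 3 genes most like each member whose mean log2 CPM was 1 or more. The members and lists were chosen with earlier results of these data known.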

Additional observations from a re-analysis of the deposited data

How the results depend on the processing

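Over the 60 log2 fold changes of the 10 genes, direction and side of the threshold held for 60 with RLE factors, 58 with library totals, 56 with no low-count filter, 51 with DESeq2, 58 with limma-voom and 52 with the skeletal muscle covariate, and for 47 of 50 with only the compared groups. With no low-count filter 1 gene was called in FAP41BBL against control (0.0271% of all genes) and 1 in the interaction (0.308%). DESeq2 called 3 genes in FAP41BBL against control (0.282% of all genes), 2 in RT_FAP41BBL against FAP41BBL (5.76%) and 2 in the interaction (3.91%). With the muscle covariate 1 gene was called in RT against control, as were 0.0169% of all genes. Leaving out 1 library gave 0 to 1 genes called in RT_FAP41BBL against FAP41BBL, 5 to 8 in RT_FAP41BBL against control and 4 to 6 in RT against control. The shares of all genes called over those fits were 0% to 2.27%, 1.93% to 10.7% and 4.43% to 10.9%, in the same order. The cause was not tested.

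Signs turned only for log2 fold changes near 0. The Fosb interaction was 0.0086 with library totals, 0.14 with limma-voom and -0.35 to 0.38 over fits without 1 library. Junb in RT_FAP41BBL against RT was -0.0903 with the covariate and -0.17 to 0.31 without 1 library. Over such fits Fosl2 in RT_FAP41BBL against control ran between -0.13 and 0.11. Against RT, Jun ran between -0.13 and 0.0572, Egr1 between -0.18 and 0.0648 and Egr2 between -0.0348 and 0.33. Junb in RT_FAP41BBL against FAP41BBL ran between -0.0637 and 0.22.

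Of 18 correlations between libraries of the same replicate number, 6 were over 0.1, within -0.388 to 0.512. Libraries of different number were not compared, so whether the numbers pair the libraries was not tested. With the replicate number as a block, 6 genes were called in RT_FAP41BBL against control (Fosb lost, edgeR adjusted p = 0.0581; 8.81% of all genes), 5 in RT against control (Egr2 lost, 0.0594; 9.58%) and 0 in the other comparisons. Depth limits Egr2 most, with 84 counts in its lowest library.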
